A study of Mus musculus with 7 samples.

Results

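The genes described here are 35 components of the unfolded protein response and the protein folding machinery of the endoplasmic reticulum (ER), taken by symbol from a table of 26143 named genes. They comprise 10 lumenal chaperones and co-chaperones, 3 members of the lectin chaperone cycle, 6 disulfide isomerases, 8 factors of ER-associated degradation, 4 stress sensors and transcription factors, and 4 translocon subunits. The RNA came from alveolar macrophages, phagocytes that live in the air sacs of the lung, sorted from C57BL/6 mice at 4 months of age. There were 3 libraries of Cish knockout (Cish KO) mice and 4 libraries of wild-type (WT) mice, untreated as far as the labels say. Cish encodes a SOCS family protein that restrains cytokine receptor signalling. The sources used here give no construction of the knockout allele, no sex and no pooling of animals, nor whether the libraries are of separate mice. The p-values below therefore measure only the spread between these libraries, which may be technical in part.

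The ER is where secreted and membrane proteins enter the secretory route, receive sugars and disulfide bonds, and fold. When folding falls behind, the sensors IRE1 (gene Ern1), ATF6 and PERK (gene Eif2ak3) start the unfolded protein response, in which spliced XBP1, cleaved ATF6 and ATF4 switch on chaperones, folding enzymes and degradation factors. Alveolar macrophages take up and break down surfactant and also secrete proteins.

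Total counts over named genes lay between 26676988 and 30870607 in the Cish KO libraries and between 30511397 and 34347648 in the WT libraries. Expression is given as CPM, which is read counts scaled to a common library size with TMM factors, a correction for differences in library composition. Cish itself had 12.9, 14.3 and 10.9 CPM in KO 1 to KO 3, against 46.3, 29.6, 38.1 and 67.9 CPM in WT 1 to WT 4, without overlap (log2 ratio -1.84, SE 0.26, edgeR adjusted p 0.0519). Library WT 4 stood apart from the other WT libraries. Along principal component 1 (42.6% of the variance) it lay at -7.27, while KO 1 to KO 3 lay at -43.9 to -18.3 and WT 1 to WT 3 at 24.1 to 39.4. WT 4 and KO 3 were each other's closest library by correlation (r 0.987). Within genotype the best values were 0.981 for WT 4 (with WT 1) and 0.981 for KO 3 (with KO 1). Chil3, a chitinase-like secreted protein and alveolar macrophage marker, had 66854, 40503 and 72178 CPM in KO 1 to KO 3, against 27941, 16623, 24028 and 50491 CPM in WT 1 to WT 4. The other 11 defining markers of alveolar macrophages were also detected in every library, Siglecf at 372 to 455 CPM in Cish KO and 521 to 587 CPM in WT (DESeq2 adjusted p 0.00330). Ear1 was the other of these markers that DESeq2 called, at 500 to 691 CPM in Cish KO and 738 to 811 CPM in WT (DESeq2 adjusted p 0.0423). Marker lists of other cell types ranged widely. B cell markers summed to at most 3.04 CPM in Cish KO and 3.44 CPM in WT, dendritic cell markers to 8.02 CPM in Cish KO and 6.01 CPM in WT, and T and NK cell markers to 10.1 CPM in Cish KO and 4.44 CPM in WT. Endothelial and fibroblast markers reached 10.6 CPM in Cish KO and 5.26 CPM in WT, those of monocytes and interstitial macrophages 18.02 CPM in Cish KO and 16.5 CPM in WT, and those of neutrophils 32.5 CPM in Cish KO and 16.3 CPM in WT, with Ly6g at 0 in every library. Epithelial markers summed to 123 to 157 CPM in Cish KO and 165 to 349 CPM in WT, a sum carried by Epcam, which had 9.24, 29.5 and 92.6 CPM in KO 1 to KO 3, against 135 to 302 CPM in WT. The other 5 epithelial markers had log2 ratios of Cish KO over WT above 0, and without Epcam the sums were 117, 128 and 30.7 CPM in KO 1 to KO 3, against 17.5 to 76.6 CPM in WT. Red blood cell genes summed to 284 to 855 CPM in Cish KO and 13.5 to 348 CPM in WT. No marker on these lists passed edgeR. DESeq2 called 3 markers of other cells, all higher in Cish KO, the NK cell receptor gene Klrb1c (adjusted p 0.000473) and the endothelial genes Cdh5 (0.00677) and Pecam1 (0.0398), each at or below 4.29 CPM in every library. The part of other cells in the differences below was not tested.

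Most of the 35 genes had a higher mean CPM in Cish KO, many of them only slightly. The 8 largest log2 ratios of Cish KO over WT, 0.63 to 1.04, were those of Derl3, Herpud1, Manf, Syvn1, Dnajb9, Hyou1, Hspa5 (which encodes BiP) and Wfs1. Those of Ern1, Atf6 and Xbp1 were 0.02, 0.11 and -0.03. All 35 passed the filter on low counts, and 33 had a log2 ratio (fitted by edgeR) above 0, against 50.5% of the 12759 genes tested. Their median was 0.21, or 0.11 without KO 1, against 0.00 over all genes. None passed an adjusted p of 0.05 by edgeR's quasi-likelihood test, where 0.0862% of all genes did (11 genes). Before adjustment, 12 members were higher with an edgeR p below 0.05 and 0 were lower, where 9.15% of all genes were higher and 8.85% lower at that threshold. At an edgeR adjusted p below 0.10 there were 4 members, Manf, Hspa5, Syvn1 and Dnajb9, all higher (1.02% of all genes). DESeq2 called 7 members, Manf, Hspa5, Syvn1, Dnajb9, Herpud1, Dnajc3 and Pdia4, all higher, and 0 lower, where it called 2.63% of 13541 genes higher and 2.88% lower. The Cish KO libraries all lay above the WT libraries for 7 members (7.23% of all genes) and all below for 0 (8.72% of all genes). In bulk RNA such differences cannot be told apart from a different share of cells that express the genes strongly.

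**Figure D1:**
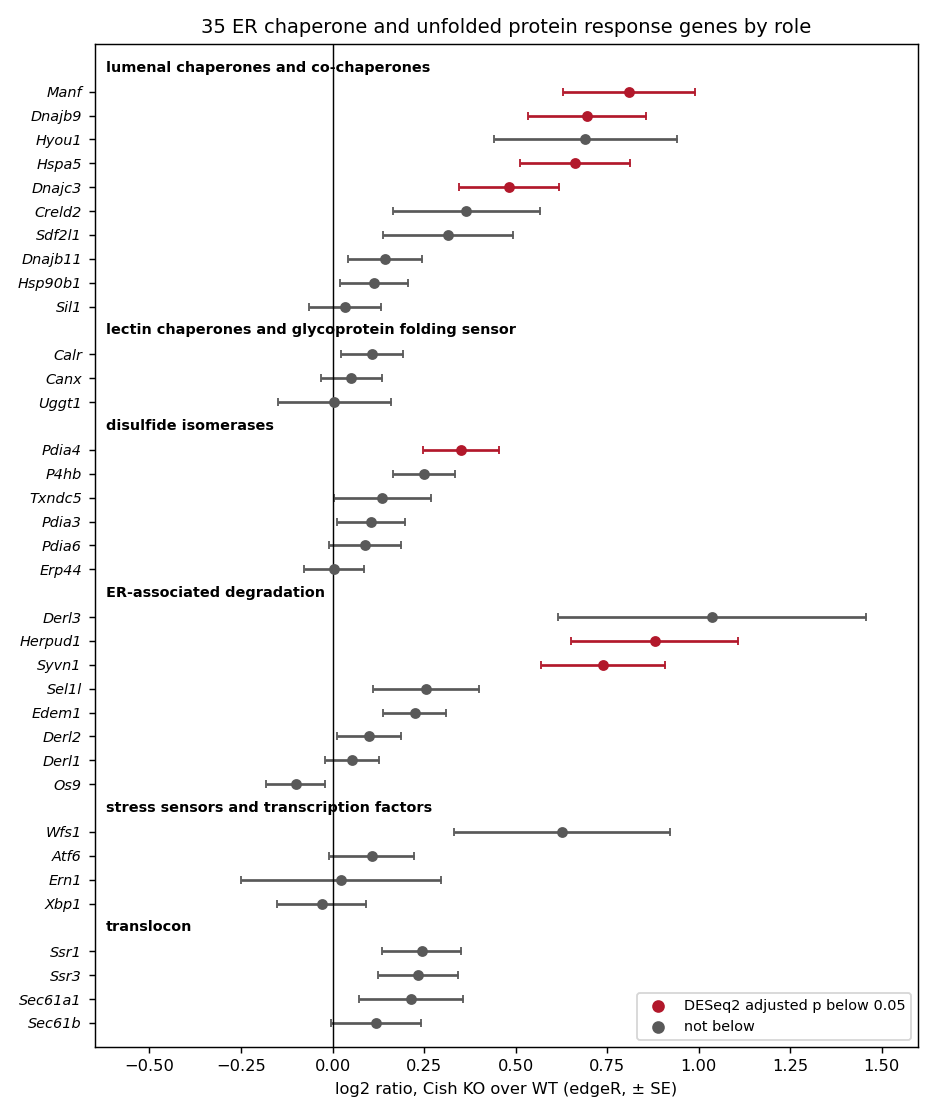
Log2 ratio of Cish KO over WT (x axis, edgeR, with standard error) for the 35 genes, grouped by role down the page. Red points are the 7 genes called by DESeq2. Manf, Dnajb9, Hyou1 and Hspa5 among the lumenal chaperones and Derl3, Herpud1 and Syvn1 among the degradation factors lie farthest to the right, and the sensors Ern1 and Atf6 and the factor Xbp1 lie near 0.

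Some promoters of the group carry a known control element of the unfolded protein response. The ER stress response element (ERSE, CCAAT and CCACG with 9 bases between them) is bound by ATF6 with the general factor NF-Y, and its shorter form is ERSE-II (ATTGG and CCACG with 1 base between them). RefSeq promoter windows (build GRCm38.p6, 250 bases before to 50 after the gene start, both strands searched) were matched by symbol for 29 of the 35 genes, with none for Atf6, Derl1, Hyou1, Manf, Sec61a1 and Sil1. ERSE letters were found in 9 of the 29 (31.0%), Calr, Canx, Creld2, Derl3, Dnajc3, Hsp90b1, Hspa5, Pdia6 and Syvn1. Over all 32851 windows of the same length 0.119% held them, and 17 of 9738 tested genes with a window did (0.175%). The genes were chosen as parts of the response that this element is known for, so their higher share follows in part from that choice. It says nothing about the genotypes. ERSE-II was found in Herpud1 and Dnajb11 (6.90% of the 29), against 0.0822% of tested genes with a window and 0.0365% of all windows. The 250 bases upstream of Hspa5, with the gene start next to the last base and the element in capitals, are shown because this gene has the highest level per kilobase of the group (chr2:34771840-34772089, plus strand).
Hspa5: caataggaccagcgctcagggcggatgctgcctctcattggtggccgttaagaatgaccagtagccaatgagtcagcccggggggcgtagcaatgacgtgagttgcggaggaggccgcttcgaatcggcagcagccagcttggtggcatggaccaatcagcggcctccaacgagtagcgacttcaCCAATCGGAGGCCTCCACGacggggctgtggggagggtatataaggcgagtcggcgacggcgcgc

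The element with 8 bases on each side is set out next for the other genes, so that the copies can be compared between the 3 that DESeq2 called and the 6 it did not. Each is written 5′ to 3′ on the strand of its gene, and capitals mark the match. Elements that begin with CGTGG are matches on the opposite strand. The first 3 are Syvn1 (chr19:6046524-6046558), Dnajc3 (chr14:118937819-118937853) and Herpud1 (ERSE-II, chr8:94386369-94386395).
Syvn1: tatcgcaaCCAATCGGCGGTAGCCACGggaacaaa
Dnajc3: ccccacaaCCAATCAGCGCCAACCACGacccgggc
Herpud1: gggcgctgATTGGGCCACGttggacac
Then come the genes that DESeq2 did not call, Derl3 (chr10:75893234-75893268), Creld2 (chr15:88819512-88819546), Hsp90b1 (chr10:86705630-86705664 and chr10:86705525-86705559), Calr (chr8:84847067-84847101), Pdia6 (chr12:17266483-17266517) and Canx (chr11:50325792-50325826). Hsp90b1, Calr and Canx lie on the minus strand, the others on the plus strand.
Derl3: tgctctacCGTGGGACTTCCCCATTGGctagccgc
Creld2: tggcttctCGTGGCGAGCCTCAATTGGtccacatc
Hsp90b1 upstream copy: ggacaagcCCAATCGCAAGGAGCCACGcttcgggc
Hsp90b1 downstream copy: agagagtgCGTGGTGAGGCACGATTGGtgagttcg
Calr: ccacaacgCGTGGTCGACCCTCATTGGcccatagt
Pdia6: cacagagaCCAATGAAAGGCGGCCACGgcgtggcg
Canx: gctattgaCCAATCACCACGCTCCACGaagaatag

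Matches were present in genes with large and with small differences. The ERSE-II match of Dnajb11 lay after its gene start. The 11 genes with an ERSE or ERSE-II match had a median log2 ratio of 0.37 (range 0.05 to 1.04), and the 18 with a window but neither match had a median of 0.18 (range -0.10 to 0.69). Among the 14 tested genes outside the group with either match, 10 were higher in Cish KO, with a median of 0.13. Shorter elements were searched in the same way. The UPRE core TGACGTGG, a site of spliced XBP1, was found in Txndc5 alone (3.45% of the 29), against 1.04% of tested genes and 0.676% of all windows. TGACGT, which the UPRE core contains, was found in 4 of the 29 (13.8%), against 13.5% of tested genes, and CCAAT, which ERSE contains, in 23 of the 29 (79.3%), against 43.2%. A match is a string of letters, not a measured site of binding.

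Among the lumenal chaperones, 10 of 10 had a log2 ratio above 0, with a median of 0.42, or 0.30 without KO 1. Hspa5, the main Hsp70 of the ER and the brake on its stress sensors (chromosome 2, 34772090 to 34776529), had 3597, 3473 and 2713 CPM in KO 1 to KO 3, against 2199, 1616, 2003 and 2425 CPM in WT 1 to WT 4. All KO libraries lay above all WT libraries, KO 3 closest to WT 4. The difference was 1.58-fold (log2 ratio 0.66, SE 0.15, edgeR adjusted p 0.0970, DESeq2 adjusted p 0.00168). By itself Hspa5 held 24.5%, 25.95% and 20.1% of the summed CPM of the 35 genes in KO 1 to KO 3, against 15.8% to 19.2% in WT.

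Of the co-chaperones that work on BiP, DESeq2 called Dnajb9 and Dnajc3 and did not call Dnajb11 and Sil1. Dnajb9, an ER J protein that holds BiP on IRE1 (chromosome 12, 44205897 to 44210068), had 365, 330 and 231 CPM in KO 1 to KO 3, against 175, 166, 200 and 222 CPM in WT 1 to WT 4. The groups did not overlap, with KO 3 just above WT 4, and the difference was 1.62-fold (log2 ratio 0.69, SE 0.16, edgeR adjusted p 0.0975, DESeq2 adjusted p 0.00216). Dnajc3, a J protein also known as an inhibitor of PERK (chromosome 14, 118937932 to 118981702), had 318, 239 and 262 CPM in KO 1 to KO 3, against 210, 166, 179 and 228 CPM in WT 1 to WT 4. Every KO library was again above every WT library, 1.397-fold in all (log2 ratio 0.48, SE 0.14, edgeR adjusted p 0.132, DESeq2 adjusted p 0.0249). Dnajb11, a J protein that hands unfolded proteins to BiP, overlapped between the genotypes, with 196 to 234 CPM in Cish KO and 174 to 213 CPM in WT (log2 ratio 0.14, SE 0.10). The nucleotide exchange factor Sil1 stood at 40.8 to 47.1 CPM in Cish KO and 39.5 to 47.6 CPM in WT, with a log2 ratio of 0.03 (SE 0.10).

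Manf, a small secreted ER protein that binds BiP (chromosome 9, 106888753 to 106891938), had 393, 277 and 290 CPM in KO 1 to KO 3, against 197, 136, 170 and 227 CPM in WT 1 to WT 4. No libraries overlapped, and the difference was 1.75-fold (log2 ratio 0.81, SE 0.18, edgeR adjusted p 0.0950, DESeq2 adjusted p 0.00105). Manf had the smallest p of the group, rank 201 of the genes tested. It lies 0.405 Mb from the targeted gene Cish. Its exons share 312 bases with genes on the opposite strand, among them Dcaf1 (10.7 CPM in Cish KO and 7.65 CPM in WT), and 14 bases with Rbm15b, both far less abundant than Manf. The library kit named in the labels does not mark strand, so reads from overlapping genes on opposite strands cannot be told apart. The part that the nearness to Cish has in the difference was not tested.

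In the other lumenal proteins KO 1 and KO 3 were above KO 2. Hyou1, the large Hsp70-like exchange factor of BiP, had 42.2, 17.1 and 35.2 CPM in KO 1 to KO 3, against 18.7, 21.8, 17.9 and 19.8 CPM in WT 1 to WT 4. KO 2 was thus below every WT library, and the log2 ratio of 0.69 (SE 0.25, edgeR adjusted p 0.197) was 0.42 without KO 1. Creld2, a disulfide-rich ER protein, stood at 83.9 to 142 CPM in Cish KO and 66.8 to 112 CPM in WT, and Sdf2l1, which assists Dnajb11, at 208 to 302 CPM in Cish KO and 178 to 280 CPM in WT. Hsp90b1, the Hsp90 of the ER, overlapped between the genotypes, with 1180 to 1407 CPM in Cish KO and 1160 to 1332 CPM in WT (log2 ratio 0.11, SE 0.09).

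**Figure D2:**
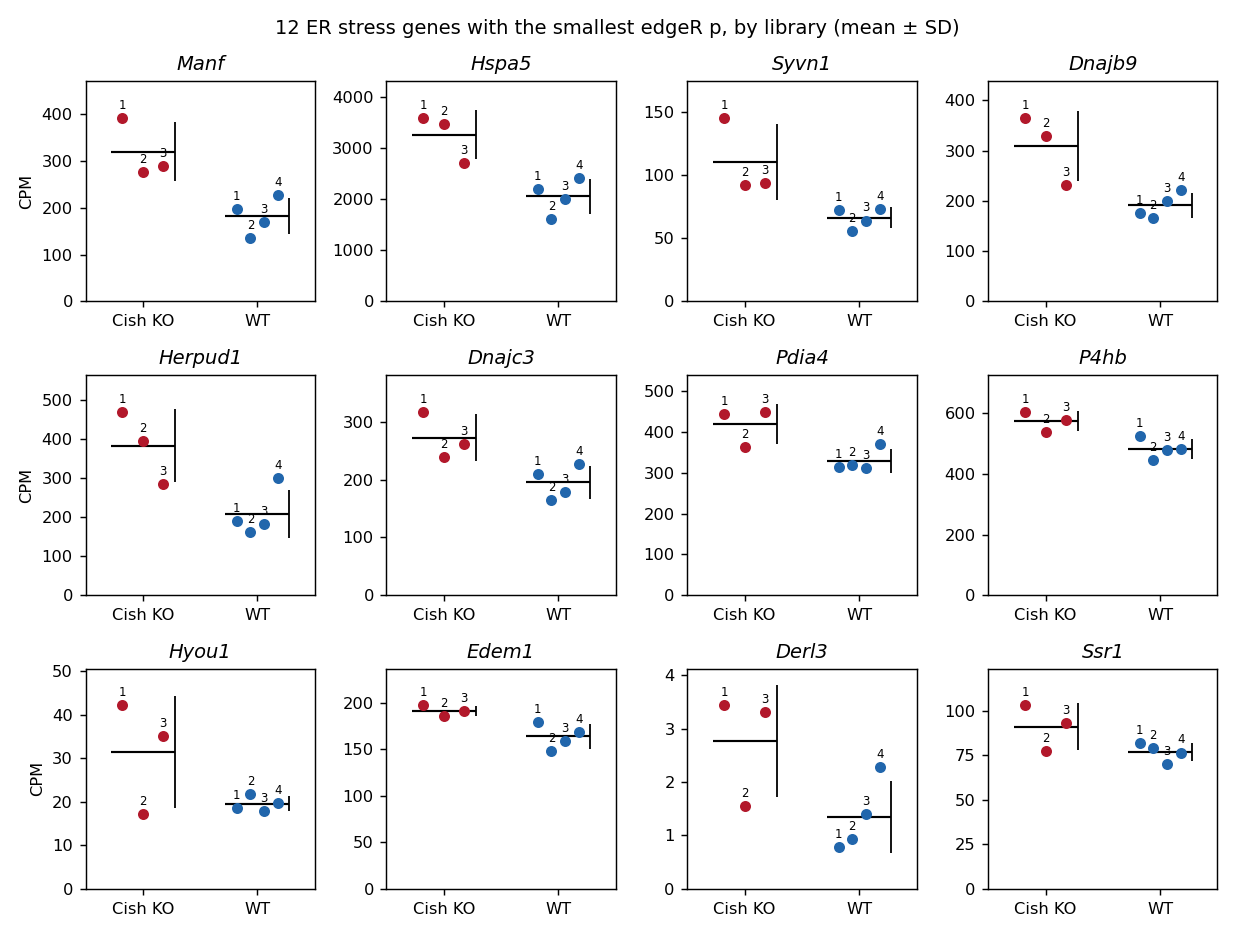
CPM per library (y axes start at 0) for the 12 members with the smallest edgeR p, Cish KO left of WT in each panel, with library numbers above the points, means as horizontal lines and SD as vertical lines. In Manf, Hspa5, Syvn1, Dnajb9, Dnajc3, P4hb and Edem1 no KO point lies as low as any WT point, and in Herpud1 the library WT 4 lies above KO 3.

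The lectin chaperone cycle, in which calnexin and calreticulin hold glycoproteins and UGGT1 marks those that are still unfolded, showed small differences. Calr had 627 to 715 CPM in Cish KO and 578 to 666 CPM in WT (log2 ratio 0.11, SE 0.09), and Canx had 692 to 785 CPM in Cish KO and 672 to 755 CPM in WT (0.05, SE 0.08). Uggt1 had 34.8 to 47.9 CPM in Cish KO and 35.7 to 52.6 CPM in WT, a log2 ratio of 0.01 (SE 0.15).

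Disulfide isomerases, which form and rearrange disulfide bonds, all had a log2 ratio above 0, with a median of 0.12. Pdia4, a partner of the BiP complex, had 444, 364 and 450 CPM in KO 1 to KO 3, against 315, 319, 311 and 371 CPM in WT 1 to WT 4. KO 2 lay below WT 4 and above the other WT libraries (log2 ratio 0.35, SE 0.10, edgeR adjusted p 0.144, DESeq2 adjusted p 0.0457). P4hb, protein disulfide isomerase itself, had 606, 539 and 577 CPM in KO 1 to KO 3, against 525, 445, 479 and 482 CPM in WT 1 to WT 4. Its groups did not overlap, and the difference was 1.19-fold (log2 ratio 0.25, SE 0.09, edgeR adjusted p 0.183, DESeq2 adjusted p 0.0960). The others, Pdia3 (the isomerase of the lectin cycle), Pdia6, Txndc5 and Erp44, overlapped between genotypes, with log2 ratios of 0.11, 0.09, 0.14 and 0.01.

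ER-associated degradation sends misfolded proteins back to the cytosol for destruction by the proteasome. In this set 7 of 8 genes had a log2 ratio above 0, with a median of 0.24, or 0.15 without KO 1, and the largest differences were in 3 genes. Herpud1, an ER membrane protein that gathers HRD1 complexes (chromosome 8, 94386429 to 94395371), had 471, 396 and 284 CPM in KO 1 to KO 3, against 190, 163, 182 and 299 CPM in WT 1 to WT 4. KO 3 was below WT 4, and all other KO libraries were above all WT libraries. The difference was 1.84-fold (log2 ratio 0.88, SE 0.23, edgeR adjusted p 0.114, DESeq2 adjusted p 0.00330). Without KO 1 the log2 ratio was 0.71.

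Syvn1 encodes HRD1, the ubiquitin ligase of the pathway (chromosome 19, 6046576 to 6053718). It had 145, 92.3 and 93.4 CPM in KO 1 to KO 3, against 72.1, 55.5, 64.0 and 73.2 CPM in WT 1 to WT 4. The KO libraries all lay above the WT libraries, KO 1 farthest, at a log2 ratio of 0.74 (SE 0.17, edgeR adjusted p 0.0975, DESeq2 adjusted p 0.00211), or 0.49 without KO 1. Sel1l, the adaptor that stabilises HRD1, had 190, 118 and 166 CPM in KO 1 to KO 3, against 136, 140, 130 and 124 CPM in WT 1 to WT 4, so that KO 2 was the lowest of all libraries. Derl3, a Derlin best known from secretory cells, was near the lower limit, with 3.43, 1.55 and 3.31 CPM in KO 1 to KO 3, against 0.783, 0.938, 1.40 and 2.28 CPM in WT 1 to WT 4. Its log2 ratio of 1.04 had an SE of 0.42 and an edgeR adjusted p of 0.241.

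Its relatives Derl1 and Derl2 had log2 ratios of 0.05 (SE 0.07) and 0.10 (SE 0.09). Edem1, which extracts misfolded glycoproteins from the lectin cycle, had 197, 186 and 191 CPM in KO 1 to KO 3, against 180, 149, 159 and 169 CPM in WT 1 to WT 4, without overlap (log2 ratio 0.22, SE 0.09, edgeR adjusted p 0.215). Os9, a lectin that delivers glycoproteins to HRD1, was the only degradation factor with a log2 ratio below 0, with 160, 147 and 162 CPM in KO 1 to KO 3, against 175, 170, 154 and 171 CPM in WT 1 to WT 4 (-0.10, SE 0.08, edgeR adjusted p 0.547). Markers of plasma cells, in which the HRD1 pathway is abundant, summed to 7.17 to 32.1 CPM in Cish KO and 4.44 to 28.4 CPM in WT, and Jchain stood at 0.552 to 3.15 CPM in Cish KO and 0.0939 to 3.41 CPM in WT. By library the plasma cell markers summed to 11.2, 32.1 and 7.17 CPM in KO 1 to KO 3. The part of plasma cells in the differences was not tested.

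Of the stress sensors and their transcription factors, none passed a test. Xbp1, the factor that IRE1 activates by splicing (chromosome 11, 5520641 to 5525993, RefSeq GRCm38.p6 as for the other genes), had 901, 1245 and 1073 CPM in KO 1 to KO 3, against 1121, 957, 1135 and 1171 CPM in WT 1 to WT 4. KO 1 was the lowest and KO 2 the highest library, opposite to the order of most members, and the log2 ratio was -0.03 (SE 0.12, edgeR adjusted p 0.926). Counts per gene do not separate spliced from unspliced Xbp1. Ern1, which encodes IRE1, had 3.50, 2.76 and 3.46 CPM in KO 1 to KO 3, against 3.69, 4.16, 2.96 and 1.94 CPM in WT 1 to WT 4, a log2 ratio of 0.02 (SE 0.27). Atf6, the sensor that becomes a transcription factor after cleavage in the Golgi, had 24.7, 23.4 and 26.1 CPM in KO 1 to KO 3, against 21.9, 27.2, 22.8 and 20.1 CPM in WT 1 to WT 4, a log2 ratio of 0.11 (SE 0.12). Wfs1, an ER membrane protein that restrains ATF6, had 2.72 to 5.52 CPM in Cish KO and 2.10 to 3.69 CPM in WT (log2 ratio 0.63, SE 0.30, edgeR adjusted p 0.306).

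Per kilobase of exon (GENCODE M21), the scale on which genes can be compared with each other, levels spanned a wide range. Hspa5 had 771 CPM per kb in Cish KO and 487 in WT, the highest level of the group in both. Pdia3 followed at 371 in Cish KO and 345 in WT, Xbp1 at 330 in Cish KO and 337 in WT, and Hsp90b1 at 325 in Cish KO and 301 in WT. Ern1 was lowest, at 0.396 in Cish KO and 0.390 in WT, with Wfs1, Derl3 and Atf6 all under 3 in both genotypes. Next came Uggt1 in Cish KO, at 3.36 (3.35 in WT), and Hyou1 in WT, at 2.70 (4.36 in Cish KO).

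The translocon, through which new proteins enter the ER, had log2 ratios above 0 in 4 of 4 subunits, with a median of 0.22, or 0.13 without KO 1. Ssr1, a subunit of the accessory TRAP complex, had 103, 77.1 and 93.2 CPM in KO 1 to KO 3, against 81.7, 79.3, 70.2 and 76.5 CPM in WT 1 to WT 4. KO 2 lay within the WT range (log2 ratio 0.24, SE 0.11, edgeR adjusted p 0.275). The TRAP subunit Ssr3 and the channel subunits Sec61a1 and Sec61b had log2 ratios of 0.23, 0.21 and 0.12, and in each of them KO 2 lay within the WT range.

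Levels also differed between libraries of the same genotype. KO 1 was the highest of the 7 libraries for 20 of the 35 genes (57.1%, against 19.7% of all genes tested), and WT 2 was the lowest for 18 (51.4%, against 15.1%). KO 2 was the lowest of the KO libraries for 29 members, a count without a share over all genes beside it. It was the lowest of the 7 libraries for 4 members (11.4%, against 13.0% of all genes). KO 1 exceeded every WT library in 24 members (28.3% of all genes did so), KO 3 in 23 (22.3% of all genes) and KO 2 in 9 (22.6% of all genes). The 9 genes in which KO 2 did so were Manf, Hspa5, Syvn1, Dnajb9, Herpud1, Dnajc3, P4hb, Edem1 and Xbp1. Relative to the WT mean, the median member stood at 0.31, 0.00 and 0.22 on the log2 scale in KO 1 to KO 3, against 0.06, -0.11, -0.05 and 0.10 in WT 1 to WT 4.

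**Figure D3:**
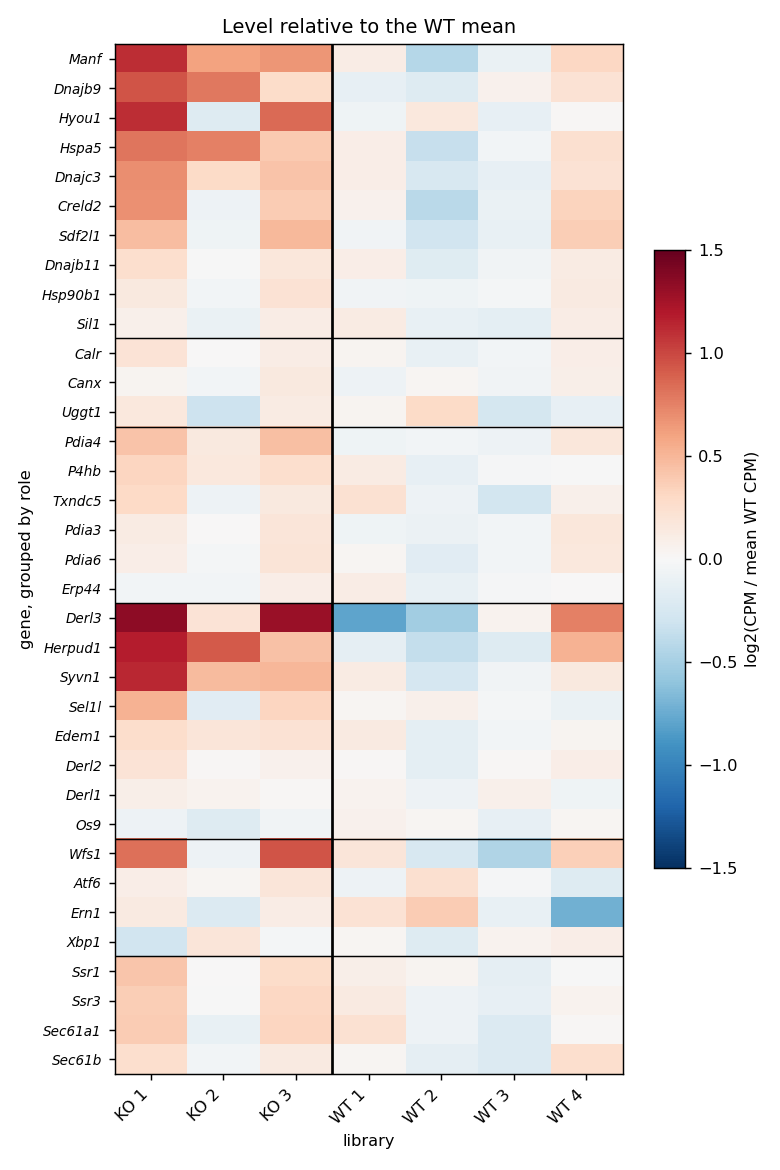
Log2 of the CPM over the mean WT CPM (colour) for the 35 genes (rows, grouped by role) in the 3 Cish KO and 4 WT libraries (columns). Red cells are most intense in KO 1 and, for most rows, in KO 3, while in KO 2 they are mainly in Hspa5, Dnajb9, Herpud1, Manf and Syvn1.

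Summed over the 35 genes, the Cish KO libraries held 14681, 13383 and 13470 CPM, against 11598, 10201, 11015 and 12617 CPM in WT 1 to WT 4. The mean was 13845 CPM ± 726 (SD, n = 3) in Cish KO and 11358 CPM ± 1016 (SD, n = 4) in WT, a ratio of 1.22. Without Hspa5 the sums were 11085, 9910 and 10757 CPM in KO 1 to KO 3, against 9399, 8586, 9012 and 10192 CPM in WT 1 to WT 4, and KO 2 lay below WT 4. Immediate early genes, a sign of handling, summed to 3120, 6459 and 3399 CPM in KO 1 to KO 3 and to 3082 to 5957 CPM in WT. KO 1 and KO 3 were within the range of WT, and KO 2 was above it. Mitochondrial transcripts made up 0.366% to 0.462% of counts in Cish KO and 0.283% to 0.451% in WT. The part of these measures in the differences was not tested.

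WT 4 and KO 3 stand last in the deposited table, and the fit was repeated without both, a choice made after seeing the data. They are also the closest libraries across the genotypes in Hspa5, Dnajb9 and Herpud1, so that leaving them out widens the difference in these genes by construction, and the calls are a description that supports nothing about the members. In it 5 members passed edgeR higher in Cish KO and 0 lower, where 2.7% of 12906 genes passed higher and 1.87% lower. They were Herpud1, Manf, Dnajb9, Syvn1 and Hspa5, and the median of the group was 0.19, below that over all libraries. With WT 4 alone left out 3 members passed (1.31% of all genes), and with KO 3 alone left out 2 (0.99%). Without KO 1 none did (0.0232% of all genes).

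Other branches and stages of the pathway had list medians between -0.07 and 0.23. In 8 lists of ER genes outside the group, 79 of 128 tested genes had a log2 ratio above 0, with a median of 0.04, and edgeR called 0. With an unadjusted edgeR p below 0.05, 18 were higher in Cish KO (14.1%, against 9.15% of all genes) and 6 lower (4.69%, against 8.85%). DESeq2 called 5, all higher (3.91%, against 2.63%), a share near that of all genes. The PERK branch, which slows translation and induces ATF4 and CHOP, had 5 of 11 genes higher and a median of -0.07, or 0.03 without KO 1. Ddit3, which encodes CHOP, had 47.1 CPM ± 5.76 (SD, n = 3) in Cish KO and 34.2 CPM ± 5.33 (SD, n = 4) in WT (DESeq2 adjusted p 0.0434, edgeR 0.140). The stress protein gene Nupr1 had 31.8 CPM in Cish KO and 39.4 CPM in WT (log2 ratio -0.31, edgeR adjusted p 0.141). Eif2ak3, the gene of PERK, had 32.5 CPM ± 2.49 (SD, n = 3) in Cish KO and 24.1 CPM ± 5.004 (SD, n = 4) in WT, with overlap (log2 ratio 0.43, edgeR adjusted p 0.192, DESeq2 adjusted p 0.118). Atf4 itself had 107 CPM in Cish KO and 112 CPM in WT.

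Among other transducers, 4 of 11 were higher, with a median of -0.03, or 0.01 without KO 1. Creb3l2, a membrane-bound relative of ATF6, had 26.1 CPM in Cish KO and 17.1 CPM in WT, and Crebrf, a regulator of CREB3, had 51.8 CPM in Cish KO and 35.1 CPM in WT. DESeq2 called both (adjusted p 0.00442 and 0.0127), edgeR neither (0.0950 and 0.109). In 4 genes of the same list all KO libraries lay below all WT libraries (8.72% of all genes). They were Atf6b (log2 ratio -0.28), Mbtps1 (-0.25), Tmbim6 (-0.21) and Creb3 (-0.21). Atf6b is a relative of ATF6, and Mbtps1 encodes a Golgi protease that cleaves ATF6. Each had an unadjusted edgeR p below 0.05 (36.4% of the list, against 8.85% of all genes), and none was called by edgeR or DESeq2. At the same threshold 18.2% of the list was higher, against 9.15% of all genes. Transport from the ER to the Golgi had 16 of 20 genes higher and a median of 0.06. Sec24a, a cargo adaptor of COPII vesicles, had 37.4 CPM ± 3.58 (SD, n = 3) in Cish KO and 24.9 CPM ± 2.46 (SD, n = 4) in WT without overlap (edgeR adjusted p 0.0797, DESeq2 0.000577), and Kdelr2, a receptor that returns chaperones to the ER, had 68.1 CPM in Cish KO and 51.4 CPM in WT (edgeR adjusted p 0.166).

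For N-glycosylation 8 of 16 genes were higher, with a median of 0.01, or -0.01 without KO 1. Its lowest p values were those of Alg2, a mannosyltransferase (17.9 CPM in Cish KO and 12.3 CPM in WT, DESeq2 adjusted p 0.0193), and Gfpt1, the entry enzyme of hexosamine synthesis (28.9 CPM in Cish KO and 21.9 CPM in WT, DESeq2 adjusted p 0.0724). ER calcium handling had 7 of 12 genes higher and a median of 0.23, or 0.13 without KO 1, close to the median of the 35 members. At an unadjusted edgeR p below 0.05, 5 of its genes were higher (41.7%, against 34.3% of the members and 9.15% of all genes) and 0 lower. The KO libraries all lay above the WT libraries for 3 genes of the list (7.23% of all genes) and all below for 2 (8.72% of all genes). The smallest p values were in the calcium release channels Itpr2 (46.5 CPM in Cish KO and 38.03 CPM in WT) and Itpr1 (5.08 CPM in Cish KO and 3.33 CPM in WT). No gene of the list was called by edgeR or DESeq2. Lists of further degradation factors (12 of 20 higher, median 0.04, or 0.0076 without KO 1) and translocation factors (15 of 20, median 0.08, or -0.0035 without KO 1) held no call by either tool. In the first, Rnf139 had a log2 ratio of -0.23 and Erlec1 of 0.43. In the second, Srprb had 0.25 and Ssr2 0.23. Further folding and oxidation enzymes had 12 of 18 higher and a median of 0.03. The prolyl isomerase Fkbp11 had 8.55 CPM ± 4.46 (SD, n = 3) in Cish KO and 2.77 CPM ± 1.59 (SD, n = 4) in WT, with a log2 ratio of 1.63 and an edgeR adjusted p of 0.151, and the oxidoreductase Txndc11 had 0.35.

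Chaperones of other compartments gave the same comparison outside the ER. Cytosolic chaperones had 13 of 23 genes higher and a median of 0.05, with 0 called by edgeR or DESeq2 and 1 at an unadjusted edgeR p below 0.05, Hspb1, at 5.77 CPM ± 3.79 (SD, n = 3) in Cish KO and 1.98 CPM ± 2.05 (SD, n = 4) in WT. Bag3, a partner of cytosolic Hsp70, had a log2 ratio of 0.59 (SE 0.26). Hspa1b and Hspa1a, of the cytosolic Hsp70 family, had log2 ratios of 0.86 (SE 0.55) and 0.81 (SE 0.55), with overlap between the genotypes. In both genes only KO 2 lay above the WT range. Hspa1b had 4004, 19345 and 6369 CPM in KO 1 to KO 3, against 2360 to 8686 CPM in WT. The ratios of this list ranged from -0.19 to 1.54, and 10 genes were lower, so its median does not describe every gene. Mitochondrial chaperones and proteases had 9 of 11 higher and a median of 0.08, with 0 called and 0 at an unadjusted p below 0.05. Hspa9, the mitochondrial Hsp70, had 286 CPM in Cish KO and 260 CPM in WT, and the protease Afg3l2 had a log2 ratio of 0.13. The medians of these lists, like that of the ER group, are descriptions, and the difference between lists was not tested.

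**Figure D4:**
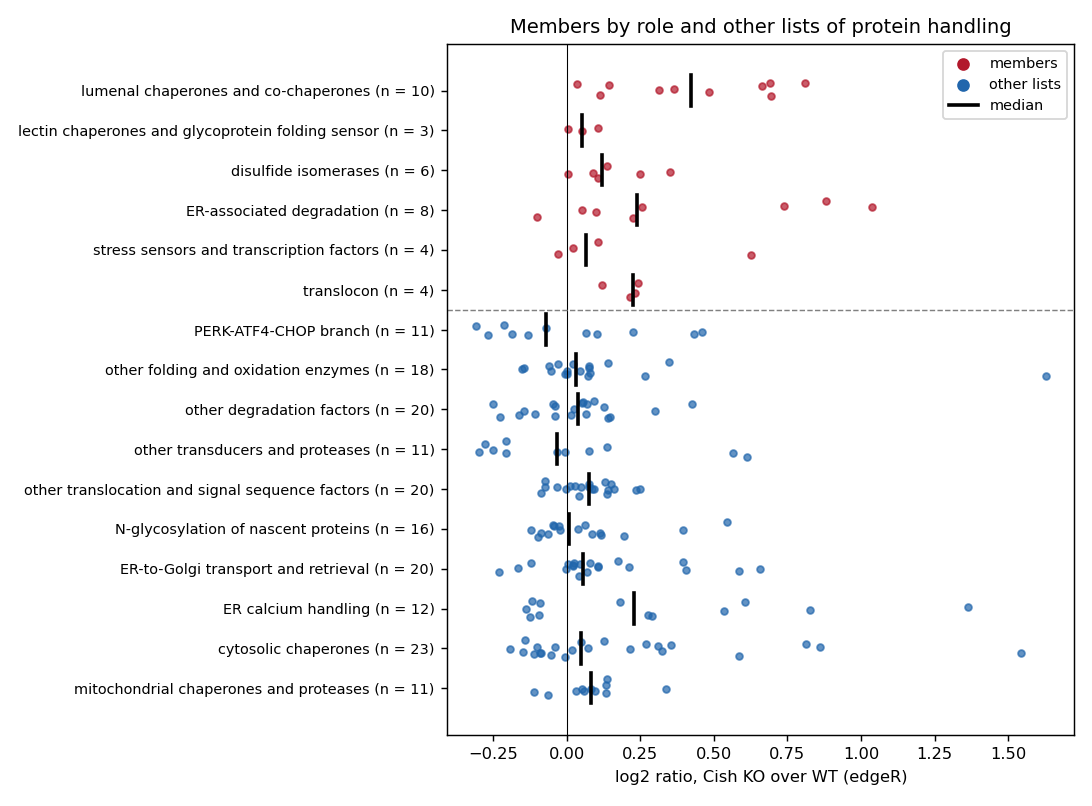
Log2 ratio of Cish KO over WT (x axis, edgeR) of single genes in the 6 roles of the ER group (red, above the dashed line) and in 10 other lists of protein handling genes (blue), with the median of each as a black bar. The lumenal chaperones have the highest median, at 0.42, and the medians of the cytosolic and mitochondrial chaperones lie at 0.05 and 0.08.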

How the data were processed

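RNA was sequenced from sorted alveolar macrophages in 3 Cish KO and 4 WT libraries. The authors deposited 1 table of raw gene counts, whose name gives rsubread as the counting tool. The genome build is mm10 per the submitters' processing notes, which also name DESeq2. The sources used here do not give the strand setting or the annotation version. Of 27179 rows, 1036 had no symbol (0.376% to 0.424% of counts) and were left out of library sizes and tests. The other 26143 rows include 26 symbols that a spreadsheet had turned into dates, none of them a member. Samples were grouped by the genotype in the labels.

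Counts were tested with edgeR 4.0.16 (quasi-likelihood test, TMM scaling, filterByExpr, Benjamini-Hochberg adjustment over 12759 genes, genotype as the only term), in R 4.3.3, and the steps were first tested on simulated data. Log2 ratios are fitted log2 fold changes of Cish KO over WT with a standard error. Alternatives were DESeq2 1.42.0, limma 3.58.1 with voom weights, other scalings and filters, a fit with the replicate number as a term and leaving out each library. Depth, 26780291 to 34483612 counts over all rows, sets the precision of low genes such as Ern1 and Derl3.

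The 35 members and all lists were chosen with earlier results of these data known. Genes named with values in every library are the 12 members with the smallest edgeR p, those lower in Cish KO, and Ern1, Atf6 and Xbp1. In each other list the 2 genes with the smallest p are named. Other members are given by range. Of the marker lists the most abundant gene was to be named. Sel1l by library, Eif2ak3, Atf4, Atf6b, Mbtps1, Tmbim6, Creb3, Hspa1a, Hspa1b, Siglecf, Ear1, Jchain, Ly6g, Klrb1c, Cdh5 and Pecam1 were chosen after their values were seen. Promoter windows came from RefSeq (GRCm38.p6, the assembly behind mm10). Protein sequences were not analysed here.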

Additional observations from a re-analysis of the deposited data

Results flagged for a closer look

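In 2 of the 35 genes, library WT 4 stood apart from the other WT libraries by Dixon's test (critical value 0.829 for 4 samples). Hsp90b1 had 1332 CPM in WT 4, while the other WT libraries had 1160 to 1187 CPM. Pdia4 had 371 CPM in WT 4, while the others had 311 to 319 CPM. Over all genes tested 728 (5.71%) had such a library in WT, and chance gives about 1 group in 20.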

How the results depend on the processing

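The median log2 ratio of the 35 genes, 0.21, lay between 0.11 (without KO 1) and 0.27 (without WT 1) over the alternatives, always above 0, and 29 to 33 members had a ratio above 0. The counts of calls moved more. Over all genes edgeR called 11, DESeq2 746, limma voom 46, edgeR with no filter on low counts 397 and with at least 5 CPM in 3 libraries 21. Leaving out single libraries gave 7 (without WT 1) to 284 (without WT 4), with 217 without KO 3, and leaving out both WT 4 and KO 3 gave 590. Among members edgeR called 0, DESeq2 7, edgeR with no filter 5, single libraries left out 0 to 3, and both left out 5. Members whose groups did not overlap numbered 7 (16% of all genes tested did not overlap), 5 with library sizes only (16.2% of all genes), 7 to 20 with single libraries left out and 14 without both (40.5%). The 20 were without KO 2 (28.7% of all genes), and without WT 4 there were 14 (26.8%). Fewer libraries raise these shares by construction. The sign of the smallest ratios changed. Ern1 was at -0.038 with library sizes only and -0.20 without both libraries, and between -0.15 and 0.18 with single libraries left out. Xbp1 was at 0.0057 without both and between -0.15 and 0.083 with single libraries left out. The other 14 members followed one by one kept their sign in every alternative, and the cause of these shifts was not tested. Low depth limits Ern1, Derl3 and Wfs1.

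The deviations of same-numbered libraries correlated at -0.01, 0.14 and -0.02. With so few libraries these values show no pairing by replicate number and cannot exclude one. A fit with the replicate block called 430 genes, 5 of them members, and gave Ern1 a log2 ratio of -0.15. In that fit WT 4 has no KO library of its number, so it adds nothing to the genotype difference. Calls also rose when WT 4 was left out (284 genes). The part that WT 4 has in the 430 calls was not tested. KO 1 and KO 3 did not correlate best with their own number, and KO 2 correlated at 0.14 with WT 2 and 0.16 with WT 3.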
